A study of Ovis aries and Sus scrofa and Bos taurus with 33 samples.

Results

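OCT4 (encoded by POU5F1), NANOG and SOX2 are the transcription factors most closely tied to pluripotency. Their transcripts were followed here in embryonic disc stem cells (EDSCs) of cow and pig. The genes were chosen by name, with earlier results of these data known: 4 Ensembl identifiers were listed, and 3 of them were found among the 64062 genes of 3 species tables. These were bovine POU5F1 (ENSBTAG00000021111), bovine NANOG (ENSBTAG00000020916) and porcine POU5F1 (ENSSSCG00000001393). The fourth, bovine SOX2 (ENSBTAG00000011598), is not analysed here, and no ovine gene was listed. The tables name genes by identifier alone, so the 3 symbols rest on the list.

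OCT4 is a POU-domain protein that binds an octamer motif in DNA. In many enhancers of pluripotent cells it binds next to SOX2, an HMG-box protein, and NANOG, a homeodomain protein, occupies many of the same enhancers. In mammalian embryos OCT4 is present in the inner cell mass and then in the epiblast, the layer that forms the foetus. NANOG is well known as a gene whose transcription in epiblast-type stem cells is maintained by activin signalling through SMAD proteins, and activin is one of the factors in the medium used here.

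The series holds 33 RNAseq libraries of EDSCs from pig, sheep and cow, all grown without feeder cells in AFX medium on a laminin and fibronectin coat. AFX contains activin A, FGF2 and XAV939, a tankyrase inhibitor that blocks Wnt signalling. Porcine cultures also received a Rock inhibitor at passaging, which those of the other species did not routinely get. The labels give no treatment or genetic change that set lines apart, and the comparisons possible were between lines and between passages. Each species table used here had 9 libraries. Bovine line 6 was taken at passages 14, 16 and 17. For bovine line 13 the passages were 16, 17 and 19, and for bovine line 16 they were 15, 16 and 17. The porcine lines 1, 2 and 4 were each taken at passages 6, 8 and 10. Porcine lines began as dissected embryonic disc epiblast, whereas bovine lines grew out of inner cell masses of embryos produced in vitro. The porcine lines were of both sexes, and which line had which is not given in the sources used here, so line and sex cannot be told apart. The 3 libraries of a line are passages of the same culture. Tests between lines therefore set their differences against the spread between passages of a culture, which may be technical.

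Values are FPKM (fragments scaled to the length of the gene and to the reads of the library), worked back from the deposited log2(FPKM + 1). Whole reads could also be worked back, and a library held between 10118008 and 14485798 reads in cow and between 37042527 and 50510194 in pig. Counting error covers read sampling only. Other markers of pluripotent or differentiated cells are not analysed here, since no symbols accompany the identifiers. In bulk RNA a lower share of cells with a transcript and less of it per cell cannot be told apart.

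Only the porcine locus was placed on a genome here. In Sscrofa11.1, RefSeq places POU5F1 on the minus strand at chr7:23564654-23570691, with a coding sequence of 1083 bases in 5 coding exons. No other annotated gene overlapped it, and the nearest, TCF19, lay 2580 bases away. POU5F1 has processed copies in many mammalian genomes, and reads from close copies can be hard to assign. A search with the coding sequence found 6 similar sequences elsewhere in this assembly. The closest spanned 1078 of the coding bases at 87.5% identity. It lies at chr5:72230264-72231331 on the plus strand, is annotated as the transcribed pseudogene LOC110260762 and sits inside CNTN1. A second, on an unplaced scaffold, spanned 1081 coding bases at 81.0% identity and is annotated as the pseudogene LOC110255275. The other 4, among them POU5F2, POU3F1 and POU3F3, matched over 331 to 597 bases at 68.4% to 75.4%.

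The 120-base stretch in which POU5F1 and the chromosome 5 sequence were most alike is shown because it is where reads of the pair would be hardest to tell apart. It covers coding positions 388 to 507 of POU5F1, counted from 1 at the start codon and crossing an exon junction. Capitals mark the 8 differing bases, and the other 112 are identical.
POU5F1 coding sequence: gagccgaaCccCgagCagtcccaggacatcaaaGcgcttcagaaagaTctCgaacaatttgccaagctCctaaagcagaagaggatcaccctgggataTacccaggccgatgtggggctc
chr5:72230643-72230762, plus strand: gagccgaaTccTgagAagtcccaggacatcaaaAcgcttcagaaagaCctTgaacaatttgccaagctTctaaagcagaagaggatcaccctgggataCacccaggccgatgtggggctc
The longest run without a difference between POU5F1 and this sequence was 29 bases over the whole alignment, and 34 bases for the unplaced pseudogene. The read length is not given in the sources used here. How far reads of the copies entered the porcine POU5F1 value was not tested. The bovine counterparts are not analysed here.

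POU5F1 was among the most abundant protein-coding transcripts of bovine EDSCs in every line and passage. In line 6 its level was 646 FPKM at passage 14, 626 at passage 16 and 661 at passage 17. In line 13 it was 375 FPKM at passage 16, 526 at passage 17 and 488 at passage 19. In line 16 it was 599 FPKM at passage 15, 583 at passage 16 and 514 at passage 17. The 3 line 6 libraries were the highest of the 9, line 13 at passage 16 was the lowest, and lines 13 and 16 overlapped. The mean over all libraries was 558 FPKM ± 91.4 (SD, n = 9), a coefficient of variation of 16.4%, and the highest library was 1.76 times the lowest. These values rest on 4183 to 8892 reads per library, for which the counting error was 1.06% to 1.55%.

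Bovine NANOG was lower than POU5F1 and more variable. Its level in line 6 was 292 FPKM at passage 14, 225 at passage 16 and 257 at passage 17. In line 13 it was 147 FPKM at passage 16, 199.75 at passage 17 and 256 at passage 19. In line 16 it was 264 FPKM at passage 15, 184 at passage 16 and 286 at passage 17. All 3 lines overlapped, and no line held the highest or lowest values throughout. The mean was 235 FPKM ± 49.2 (SD, n = 9), with a coefficient of variation of 21.0% and a highest library at 1.99 times the lowest. The counting error was 1.29% to 2.02%, on 2457 to 6019 reads. The lowest library was again line 13 at passage 16.

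Porcine POU5F1 stood near the very top of its libraries. In line 1 it was 1292 FPKM at passage 6, 1520 at passage 8 and 1179 at passage 10. In line 2 it was 1744 FPKM at passage 6, 1400.0 at passage 8 and 1425 at passage 10. In line 4 it was 1718 FPKM at passage 6, 1498 at passage 8 and 1857 at passage 10. The 3 lines overlapped, with line 1 holding the 2 lowest libraries and line 4 the highest. The mean was 1515 FPKM ± 222 (SD, n = 9), the coefficient of variation 14.7%, and the highest library 1.58 times the lowest. Reads numbered 65140 to 117507 per library, and the counting error was 0.292% to 0.392%.

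**Figure D1:**
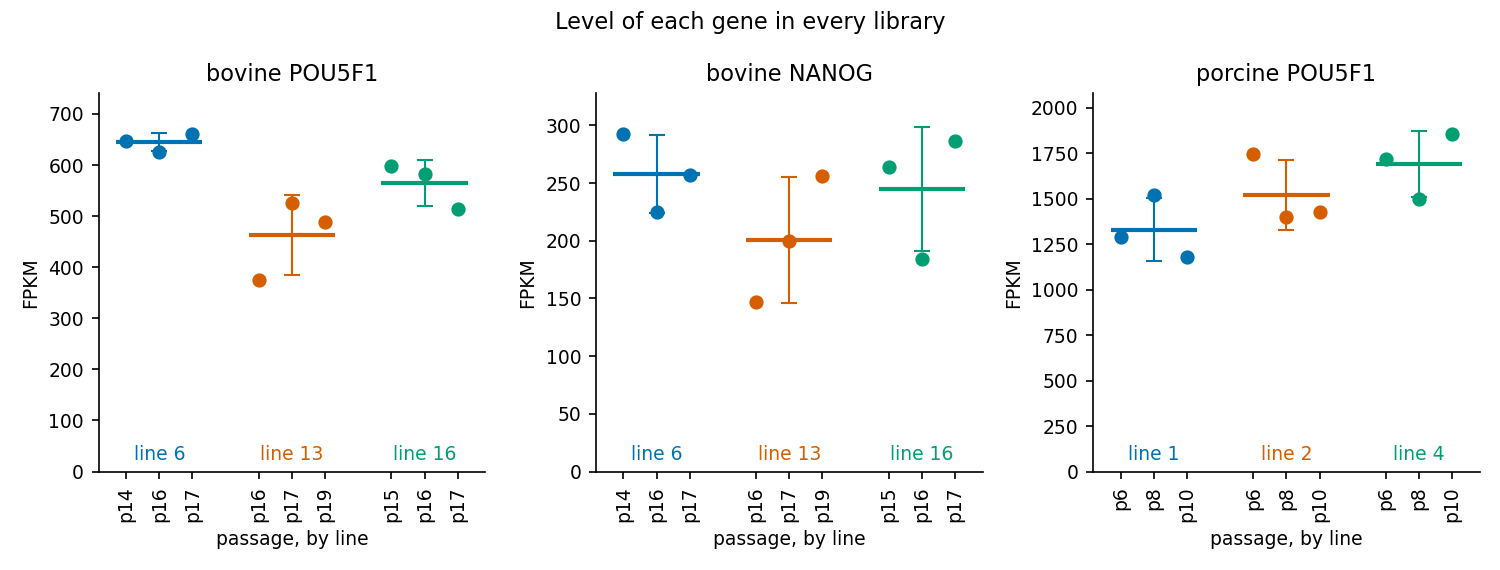
FPKM (vertical axis, starting at 0) of bovine POU5F1, bovine NANOG and porcine POU5F1 in each library, one panel a gene, by line along the horizontal axis; points are libraries labelled by passage, and the horizontal line with its error bar is the line mean ± SD (n = 3). Bovine line 6 lies above the other bovine lines for POU5F1, from 626 to 661 FPKM, while for the other genes the lines overlap.

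FPKM depends on the gene models, which differ between species, so levels were set side by side across species only as ranks within a library. Bovine POU5F1 ranked between 63 and 104 of 21861 genes, with a mean rank of 79.4 ± 13.2 (SD, n = 9). It was in the top 1% of genes in 9 of 9 libraries, or 7 of 9 when genes were ordered by reads, and by FPKM 56 genes were above it in every library. By rank, the 3 libraries of line 13 lay below all others, at 104, 92 and 86, against 65, 74 and 63 in line 6 and 73, 83 and 75 in line 16, whereas by FPKM lines 13 and 16 overlapped. Bovine NANOG ranked between 158 and 394, with a mean of 242 ± 79.3 (SD, n = 9). It was in the top 1% in 5 of 9 libraries, but in 1 of 9 among genes above 0 in the library and in 0 of 9 by reads. By FPKM 140 genes were above it in every library. Porcine POU5F1 ranked between 13 and 22 of 21280 genes, with a mean of 16.0 ± 2.83 (SD, n = 9), and 11 genes were above it in every library. Of the 280 bovine genes in the top 1% of any library, 171 were there in every library, as were 189 of 236 in pig.

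The ranks of POU5F1 in pig and cow did not overlap. On average 0.0752% of genes ranked at or above it over the 3 porcine lines, with an SD of 0.0113, and 0.363% over the 3 bovine lines, with an SD of 0.0618. The exact two-sided permutation test over lines gave p = 0.10, which is the smallest that 3 lines against 3 allow. Species cannot be told apart here from the embryo stage of origin, the passage range or the Rock inhibitor at passaging. The same holds for the kit used to remove ribosomal RNA, the sequencing depth, the assembly and the gene models. When genes were ordered by reads, without dividing by length, POU5F1 ranked 19 to 39 in pig and 136 to 352 in cow, and bovine NANOG 279 to 764. The gene lengths behind the FPKM were 1335 bases for porcine POU5F1, 1083 for bovine POU5F1 and 1622 for bovine NANOG. The bovine POU5F1 length equals that of the porcine coding sequence.

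**Figure D2:**
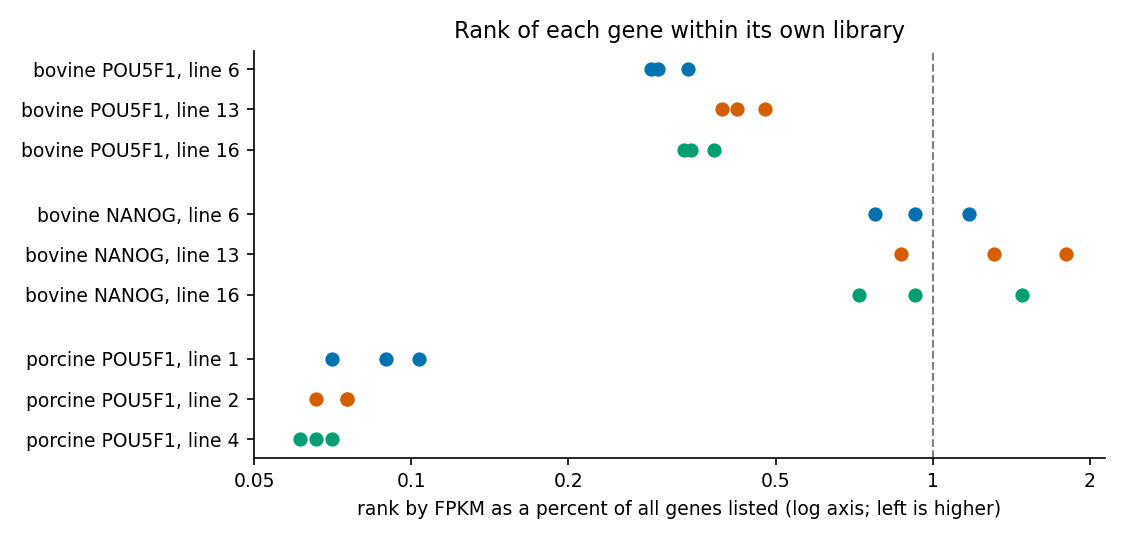
Rank of each gene by FPKM as a percent of all genes listed for its species (horizontal axis, log scale, higher levels to the left), one row for each gene and line; points are libraries and the dashed line marks 1%. Porcine POU5F1 lies furthest left, with a mean of 0.0752%, bovine POU5F1 lies left of 1% in every library, and bovine NANOG lies on both sides of it in this ranking.

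Whether lines differed was tested with limma's F-test on log2(FPKM + 1) over all genes of a species that passed a filter on low values, which all 3 genes did. None passed at an adjusted p of 0.05: 0 of 2 bovine genes, where 3.18% of 13630 tested genes passed, and 0 of 1 in pig, where 8.95% of 14596 did. At an unadjusted p under 0.05 it was 1 of 2 in cow, where 2341 of all 13630 genes were, and 0 of 1 in pig, where 4085 of 14596 were. With voom weights on the reads, limma called none of the 3 genes, against 443 genes in all in cow and 1363 in pig. Bovine POU5F1 came nearest. Its line means were 645 FPKM ± 17.3, 463 ± 78.7 and 565 ± 45.2 (SD, n = 3 each) for lines 6, 13 and 16, spanning 0.49 on the log2 scale (adjusted p = 0.136 by limma). An exact permutation test of this gene alone gave p = 0.0107, with 3 of 280 groupings of the libraries as extreme and a smallest possible p of 0.00357. This was 1 of 4 exact tests of single values, 3 of a gene and 1 of a ratio, and their p-values are not adjusted.

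Line 13 was lower than line 6 for bovine POU5F1 by a log2 difference of -0.49 (SE 0.13, 95% interval -0.78 to -0.20), or 0.712-fold, with an adjusted p of 0.0826 by limma. Among all bovine genes 2.58% passed in this contrast. The bovine lines were taken at different passages and the line test held no passage term, so line and passage are partly mixed. Without line 13 at passage 17 the difference was -0.59 with an adjusted p of 0.0499, and over all libraries left out in turn it ran from -0.59 to -0.35 with an adjusted p of 0.0499 to 0.214. Line 16 against line 6 gave -0.19 (95% interval -0.48 to 0.09, adjusted p = 0.773 by limma), where 1.18% of genes passed. Line 16 against line 13 gave 0.30 (0.01 to 0.59, adjusted p = 0.308 by limma), where 1.95% passed, and was 0.15 without line 13 at passage 16 (adjusted p = 0.634 by limma). Line 16 against line 6 was -0.13 without line 16 at passage 17. The order of the line means was thus 6, 16 and 13, and no neighbours in it passed the test.

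For bovine NANOG the line means were 258 FPKM ± 33.96, 201 ± 54.6 and 245 ± 53.5 (SD, n = 3 each) in the same order of lines, a span of 0.39 on the log2 scale (adjusted p = 0.534 by limma, exact permutation p = 0.389). The widest contrast, line 13 against line 6, was -0.39 (SE 0.21, 95% interval -0.85 to 0.08, adjusted p = 0.378 by limma). Line 16 against line 13 gave 0.29 (-0.17 to 0.76) and line 16 against line 6 gave -0.09 (-0.56 to 0.37). Both differences from line 13 rested largely on its passage 16: without that library they were -0.18 against line 6 and 0.09 for line 16 against line 13. Over all libraries left out in turn they ran from -0.58 to -0.18 and from 0.09 to 0.49. The intervals are wide enough to hold differences as large as that of POU5F1. The difference of line 16 from line 6 changed sign when 1 library was left out, to 0.00162 without line 6 at passage 14 and 0.0984 without line 16 at passage 16, so the order of lines 6 and 16 for NANOG was not settled.

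For porcine POU5F1 the line means were 1330.26 FPKM ± 174, 1523 ± 192 and 1691 ± 181 (SD, n = 3 each) for lines 1, 2 and 4. The span was 0.35 on the log2 scale (adjusted p = 0.201 by limma, exact permutation p = 0.118). Line 4 against line 1 gave 0.35 (95% interval 0.06 to 0.63), or 1.27-fold, with an adjusted p of 0.145 by limma, in a contrast where 3.38% of genes passed. Line 2 against line 1 gave 0.20 (-0.09 to 0.48), where 9.58% passed, and line 4 against line 2 gave 0.15 (-0.13 to 0.44), where 2.71% passed. Leaving out each library gave 0.27 to 0.45, 0.09 to 0.30 and 0.08 to 0.25 for these differences, the lowest without line 1 at passage 10, line 2 at passage 6 and line 4 at passage 10. No step in the order 1, 2, 4 passed the test.

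**Figure D3:**
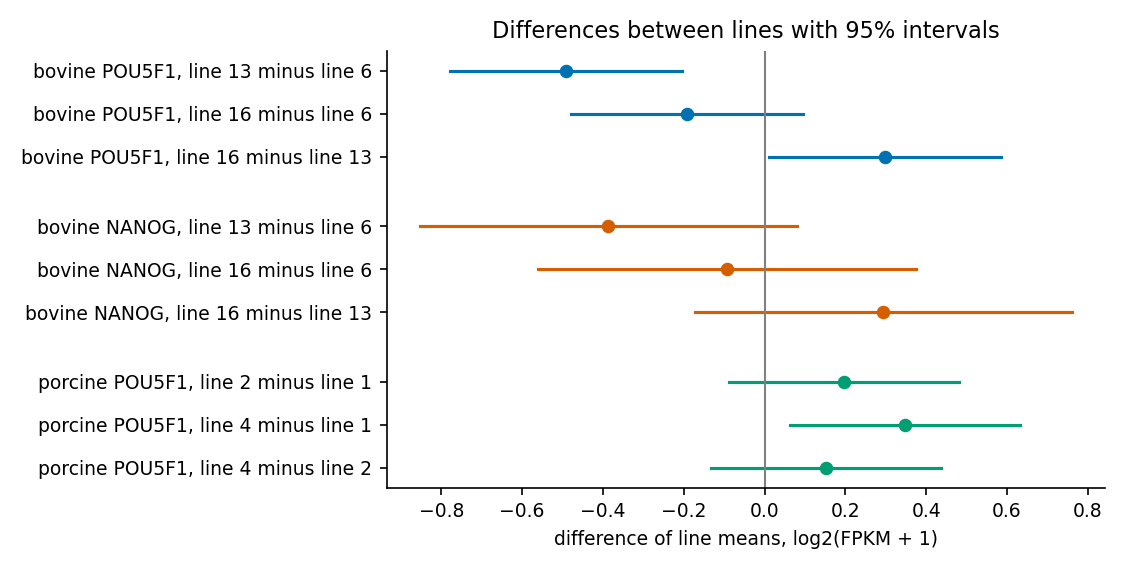
Differences between line means in log2(FPKM + 1) for each pair of lines (horizontal axis), with 95% intervals from limma, for bovine POU5F1, bovine NANOG and porcine POU5F1. The intervals of bovine POU5F1 in lines 13 minus 6 and 16 minus 13, and of porcine POU5F1 in lines 4 minus 1, do not cover 0, and none of the differences passed after adjustment over all genes.

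Although no line difference passed, the genes were not unusually steady beside all tested genes of their species. The SD over the 9 libraries on the log2 scale was 0.26 for bovine POU5F1 and 0.33 for bovine NANOG, against a median of 0.19 over all bovine genes tested. In pig it was 0.21 for POU5F1 against a median of 0.11. The SD was smaller for 72.9%, 84.2% and 85.0% of the tested genes of the species. Within lines, the SD of bovine POU5F1 was 0.16, near the bovine median of 0.17. NANOG kept an SD of 0.32 within lines, and 88.3% of bovine genes had a smaller one. For porcine POU5F1 it was 0.17 within lines against a median of 0.09. The SD of NANOG was thus little smaller within lines than over all libraries, at 0.32 against 0.33. That of bovine POU5F1 was 0.16 within lines against 0.26 over all libraries.

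None of the 3 genes passed the test of a trend with passage. The slope within lines was 0.02 ± 0.05 (SE) per passage on the log2 scale for bovine POU5F1, 0.08 ± 0.08 for bovine NANOG and -0.03 ± 0.03 for porcine POU5F1, with adjusted p of 0.999994, 0.999994 and 0.832 by limma. Leaving out each library moved these slopes to between -0.0347 and 0.0488 for bovine POU5F1, lowest without line 13 at passage 16, and between -0.00543 and 0.195 for NANOG, lowest without line 13 at passage 19 and highest without line 6 at passage 14. For porcine POU5F1 they lay between -0.0582, without line 4 at passage 10, and -0.000943, without line 2 at passage 6. For NANOG the values of line 13 were ordered by passage, from 147 to 256 FPKM, but in lines 6 and 16 the lowest value lay at the middle passage. Among all genes limma called 0% in either species, with 230 bovine and 1354 porcine genes at an unadjusted p under 0.05, and voom called 0. No difference in slope between lines passed the test of the interaction, which was chosen after seeing the data (adjusted p = 0.968, 0.965 and 0.995 by limma). That test called 0% of bovine genes, with 586 at an unadjusted p under 0.05, and 0.00685% of porcine genes. The SEs set how small a slope could be seen.

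POU5F1 exceeded NANOG in all 9 bovine libraries. The FPKM ratio of POU5F1 to NANOG was 2.21, 2.79 and 2.57 in line 6 at passages 14, 16 and 17. In line 13 it was 2.55, 2.63 and 1.91 at passages 16, 17 and 19, and in line 16 it was 2.27, 3.16 and 1.80 at passages 15, 16 and 17. The highest and the lowest ratio were neighbouring passages of line 16. The mean ratio was 2.43 ± 0.432 (SD, n = 9), and the line means of 2.52 ± 0.292, 2.36 ± 0.398 and 2.41 ± 0.694 (n = 3 each) differed by less than the spread within lines (exact permutation p = 0.886). The order did not rest on the gene lengths, since the ratio of reads, without dividing by length, ran from 1.199 to 2.11.

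Over the 9 bovine libraries the log2 levels of the pair had a Pearson r of 0.628, and r was 0.406 after taking away the line means. Libraries share depth and line, so this is a description. It rested on 1 library: without line 13 at passage 16, a choice made after seeing the data, r was 0.0966 (n = 8). This library was the lowest of 9 for POU5F1 and for NANOG, and among all tested genes it was the lowest for 16.8%, against 5.77% to 16.9% in the other libraries. Its total of 10307035 reads was near the low end, and its median log2 difference from the mean of the libraries was -0.03. The part that this library's other differences had in the low values was not tested.

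**Figure D4:**
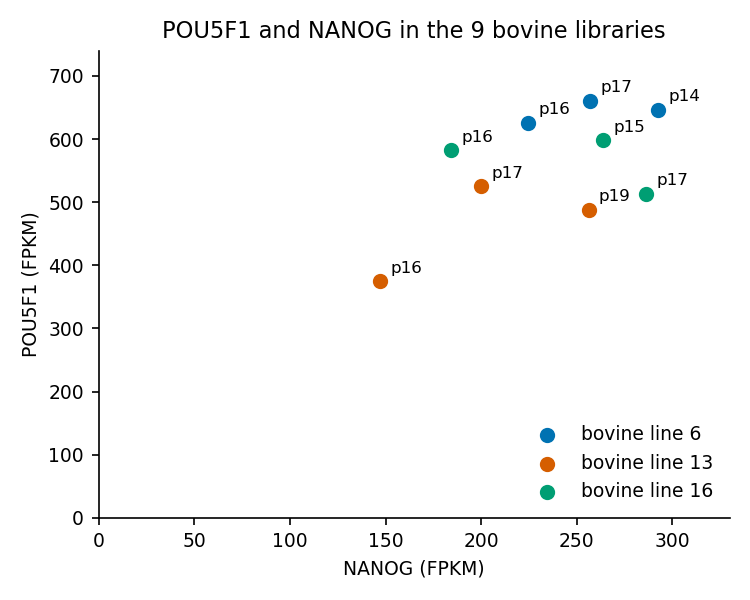
POU5F1 against NANOG in the 9 bovine libraries, both in FPKM, coloured by line and labelled by passage. Line 13 at passage 16 lies alone at the lower left, at 375 FPKM for POU5F1 and 147 for NANOG, and the other 8 libraries show little relation (r = 0.0966 on the log2 scale).

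The gene whose profile was most like each of the 3 was found by the Pearson correlation of log2 levels over the 9 libraries of the species. For bovine POU5F1 it was ENSBTAG00000015156, at a mean of 167 FPKM, with an r of 0.976, and 49 of 12013 genes compared reached 0.9. For bovine NANOG it was ENSBTAG00000003189, at 48.3 FPKM, with an r of 0.931, and 6 genes reached 0.9. For porcine POU5F1 it was ENSSSCG00000008878, at 74.0 FPKM, with an r of 0.982, and 127 of 10798 genes reached 0.9. With 9 libraries and so many genes, high values of r arise in number. The symbols of these genes are not given here, and the values are a description.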

How the data were processed

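RNA of EDSCs was sequenced from NEBNext Ultra II Directional libraries after removal of ribosomal RNA, with Ribo-zero for pig and Qiaseq FastSelect for sheep and cow. Reads were trimmed by the authors (Trim-Galore) and mapped with STAR, the assembly being Sscrofa11.1 for pig, ARS-UCD1.2 for cow and Oar_v3.1 for sheep. FeatureCounts gave the counts of protein-coding genes. The annotation release and strand setting are not given in the sources used here. The values as deposited by the authors are log2(FPKM + 1), although the tables are named as counts.

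FPKM was computed as 2 to the value minus 1. Whole reads were worked back from the steps between values, within a tolerance of 1e-06, for 100% of the 19426 porcine and 18900 bovine genes above 0. These gave the totals, the counting errors and the filter: at least 10 reads, scaled to the median total, in 3 libraries and 15 in all. The shortest gene length that gave whole reads was used, so the reads of a gene with few could be understated. Over all genes the reads summed to 99.90% to 99.97% of a library's total. Lines and passage slopes were tested with limma 3.58.1 (R 4.3.3, trended variance) and Benjamini-Hochberg adjustment over all genes, and checked on simulated data. Single values were tested by exact permutation over all 280 groupings of 9 libraries into lines. The p-value counts groupings whose one-way F statistic was at least as large as that observed. Similar sequences were sought with blastn 2.17.0 in Sscrofa11.1 with its RefSeq annotation. The gene most alike was the one with the highest r among tested genes averaging 1 FPKM or more. Alternatives are given in the closing section. The genes and lists were chosen with earlier results of these data known. Planned lists of other pathway and marker genes are not analysed here, since the identifiers could not be matched to symbols.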

Additional observations from a re-analysis of the deposited data

How the results depend on the processing

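No F-test over lines of the 3 genes passed an adjusted p of 0.05 by limma under any of 15 alternatives each (upper-quartile scaling, a pseudocount of 0.1, no filter, a minimum mean of 1 FPKM, voom on reads, a replicate block and each of 9 libraries left out). Of the contrasts between pairs of lines, bovine POU5F1 in line 13 against line 6 passed in 1 of 15, at -0.59 (adjusted p = 0.0499 by limma) when passage 17 of line 13 was left out. Over the settings other than leaving out a library the adjusted p was 0.101 to 0.213 for bovine POU5F1, 0.514 to 0.631 for bovine NANOG and 0.156 to 0.306 for porcine POU5F1. Leaving out each library gave 0.0811 to 0.255, 0.330 to 0.889 and 0.130 to 0.417.

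The number of all genes differing between lines was less steady. In cow it was 433, and 285 with passage order as a replicate block (265 of them shared). Leaving out each library gave 240 to 461 in cow. The lowest came from line 16, with 240 and 268 genes when passage 15 or 16 was left out, and line 13 gave 273 when its passage 19 was. In pig it was 1306, and 539 to 1428. Here 539 genes passed when passage 6 of line 1 was dropped and 693 when its passage 10 was, while dropping passage 6 of line 4 gave 861 and passage 10 of line 2 gave 868. The causes were not tested. Deviations of libraries with the same order number correlated between -0.353 and 0.403 in cow and between 0.00396 and 0.415 in pig, where a number is also the same passage in every line. Since not every pair was over 0.1 in either species, the numbers were not taken as pairing; the block gave 1155 genes in pig. With the block the adjusted p by limma was 0.213, 0.514 and 0.243 for the 3 genes.

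The count of genes with a passage trend was 0 by limma under each alternative run, the order of passages in place of their number included. The alternatives planned for bovine SOX2 were not run. Signs turned for values near 0. NANOG in line 16 against line 6 was -0.09, but 0.00162 when passage 14 of line 6 was left out and 0.0984 when passage 16 of line 16 was (-0.217 to 0.0984 over all). The passage slope of bovine POU5F1 became -0.0347 if line 13 lost its passage 16 (-0.0347 to 0.0488 over all), and that of NANOG -0.00543 if it lost passage 19 (-0.00543 to 0.195). Ordering genes by reads moved the mean share of genes at or above to 0.117% for porcine POU5F1, 0.9001% for bovine POU5F1 and 1.96% for NANOG, and counting only genes above 0 moved it to 0.0932% and 0.479% for porcine and bovine POU5F1. The bovine libraries are shallower, and the effect of depth was not tested.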

Other observations

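Rank and level did not always move together in cow. In line 13, POU5F1 was at 526 FPKM and rank 92 at passage 17, and at 488 FPKM and rank 86 at passage 19. Line 16 at passage 17 had the lower level of POU5F1 in that line, 514 FPKM, at rank 75, and its passage 16 had 583 FPKM at rank 83. No library lay beyond Dixon's critical value in the 7 groups of values tested (levels, ranks and the ratio), and the widest gap was 0.466 of the range. On the TPM scale bovine POU5F1 was at 1194 ± 193 (SD, n = 9).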
